A study of Mus musculus with 4 samples.

Results

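The genes described here sense iron, oxidise it on its way out of cells or reduce it on its way in. They are Hfe, Tfr2 and the hepcidin gene Hamp (sensing and hormone), Heph and Cp (ferroxidases), and Steap1, Steap2, Steap3, Steap4 and Cybrd1 (metalloreductases). Members were chosen by name, as every probe whose listed target equals one of these 10 symbols. That rule found 15 probes of 6 genes (HFE, HEPH, CP, HAMP, STEAP2 and CYBRD1 in the tables' capitals) among the 45281 probes on the array. Tfr2 was listed under its older symbol TRFR2, Steap1 as STEAP, Steap3 as 1010001D01RIK and Steap4 as AI481214, each a synonym of a single gene in the RefSeq annotation of GRCm38.p6. These 7 probes of the other 4 genes are given beside the 15 and counted apart from them.

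The samples were RNA of subcutaneous white fat from C57BL/6 mice aged 8 to 12 weeks, in 2 groups of 2 samples each. Wild-type mice (WT) and mice with a fat-specific transgene for mitochondrial ferritin (FtMT-Adip), an iron store inside mitochondria, were both fed a doxycycline-containing high-fat diet over 3 weeks. The labels do not name the promoter of the transgene, and they do not say whether a sample is 1 mouse or a pool, so p-values measure only the spread between these samples, which may be technical. Each sample was hybridised to an Illumina BeadChip, an array of beads coated with gene-specific probes, and signals are in the scanner's arbitrary units.

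In the liver, HFE and transferrin receptor 2 take part in sensing iron-loaded transferrin at the cell surface, and with bone morphogenetic protein (BMP) signalling they raise hepcidin. Hepcidin is a peptide hormone that causes the iron exporter ferroportin to be degraded. Iron leaves cells as ferrous iron and is oxidised by the multicopper ferroxidases hephaestin, which is anchored in the membrane, and ceruloplasmin, which occurs as a plasma protein and as a membrane-anchored form, before transferrin binds it. On the way in, ferric iron is reduced at the plasma membrane or in endosomes by haem-containing reductases, among them the STEAP family and duodenal cytochrome b, encoded by Cybrd1.

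Promoters are shown for Hfe and Tfr2, which were lower in FtMT-Adip by the test described below, for Tfr2 by 1 of 2 probes. They are also shown for Hamp with its neighbouring copy Hamp2, which are the genes at the end of the sensing pathway. Heph was lower too, but no promoter entry for it was available. Each window holds 250 bases before to 50 after a RefSeq start site of GRCm38.p6, 5′ to 3′, at chr13:23710805-23711104 (minus strand), chr5:137569590-137569889 (plus strand), chr7:30943980-30944279 (minus strand) and chr7:30924132-30924431 (minus strand). Capitals mark matches, on either strand, to a BMP response element core (GGCGCC), a STAT site (TTCNNNGAA), an antioxidant response element core (TGACNNNGC) or an AP-1 site (TGANTCA). Sites for ATF4 and CHOP (TGATGNAA), C/EBP (TTGCNNAA) and E-box factors (CACGTG) were also searched and are not in these 4 windows.
Hfe: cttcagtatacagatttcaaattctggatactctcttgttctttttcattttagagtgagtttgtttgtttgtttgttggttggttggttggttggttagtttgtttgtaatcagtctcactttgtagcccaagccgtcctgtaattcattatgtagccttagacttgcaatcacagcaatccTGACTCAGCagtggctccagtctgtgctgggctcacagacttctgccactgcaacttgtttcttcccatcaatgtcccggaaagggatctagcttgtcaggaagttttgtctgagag
Tfr2: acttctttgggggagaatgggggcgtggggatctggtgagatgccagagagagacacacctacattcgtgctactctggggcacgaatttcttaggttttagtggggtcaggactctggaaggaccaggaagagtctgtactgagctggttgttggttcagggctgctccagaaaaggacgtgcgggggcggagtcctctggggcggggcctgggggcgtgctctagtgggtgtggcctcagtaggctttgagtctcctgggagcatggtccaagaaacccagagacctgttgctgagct
Hamp: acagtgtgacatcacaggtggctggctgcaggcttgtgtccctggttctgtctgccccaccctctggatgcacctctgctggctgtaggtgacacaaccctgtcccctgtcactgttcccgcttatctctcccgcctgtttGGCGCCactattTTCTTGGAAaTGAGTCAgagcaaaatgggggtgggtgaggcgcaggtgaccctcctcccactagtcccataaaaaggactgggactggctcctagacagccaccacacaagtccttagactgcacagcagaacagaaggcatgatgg
Hamp2: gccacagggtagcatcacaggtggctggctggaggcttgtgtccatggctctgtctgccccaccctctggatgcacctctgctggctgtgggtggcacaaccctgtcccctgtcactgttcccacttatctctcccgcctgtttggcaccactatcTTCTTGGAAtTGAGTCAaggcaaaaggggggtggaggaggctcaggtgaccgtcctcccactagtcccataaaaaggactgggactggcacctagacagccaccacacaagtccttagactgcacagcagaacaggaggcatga
The Hfe window holds TGACTCAGC starting 67 bases before the start site, where the antioxidant response element core overlaps an AP-1 match. The Tfr2 window, the one of its 3 entries nearest to the annotated gene start, holds no match to these motifs. The Hamp window holds GGCGCC starting 109 bases and TTCTTGGAA starting 97 bases before the start site, which are the letters of the BMP and STAT3 elements known from the hepcidin promoter, and an AP-1 match starting 87 bases before it. Hamp2 keeps TTCTTGGAA but has no GGCGCC, and both windows are identical at 276 of 297 aligned bases (92.9%). Of the 32851 promoters in the table, 11.9% hold GGCGCC, 8.3% the STAT site, 12.4% the antioxidant response element core, 7.81% the AP-1 site, 3.97% the ATF4 and CHOP site, 10.8% the C/EBP site and 7.15% the E-box. A match is a run of letters and does not show binding.

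Background on an array was taken from 1479 probes for olfactory and vomeronasal receptors, whose 95th percentile lay between 119.6 and 123.5. A probe was tested when it exceeded this background on at least 2 of the 4 arrays. Of the 15 probes 8 were tested, for Hfe, Heph, Cp, Hamp and Steap2, and of the 7 under older names 3 were tested, for Tfr2 and Steap3. Every tested member probe that passed a Benjamini-Hochberg adjusted p of 0.05 in limma was lower in FtMT-Adip. Lower calls numbered 4 of the 8 tested probes (Hfe and Heph), beside 4.16% of the 20797 probes tested on the array, and 1 of the 3 under older names (Tfr2). Those 4 are 2 probes each of Hfe and Heph, which share their RNA, so they are not 4 separate results. The members were also chosen with earlier results of these data known. Higher calls by limma at the adjusted limit numbered 0 of 8 and 0 of 3, beside 3.28% of all tested probes. With so few probes, a count of 0 does not set them apart from that share. At an unadjusted p under 0.05 higher changes also numbered 0 of 8 and 0 of 3, where 4449 of the 20797 probes passed in either direction. On the normalized scale each FtMT-Adip array lay below each WT array for 6 of the 8 probes and 2 of the 3 under older names, beside 25.9% of all tested probes. The 2 under older names are the Tfr2 probes, which met the filter by their WT arrays alone. Their direction was therefore fixed in part by the filter, and they do not count as support. The median log2 change over all tested probes was 0.00.

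**Figure D1:**
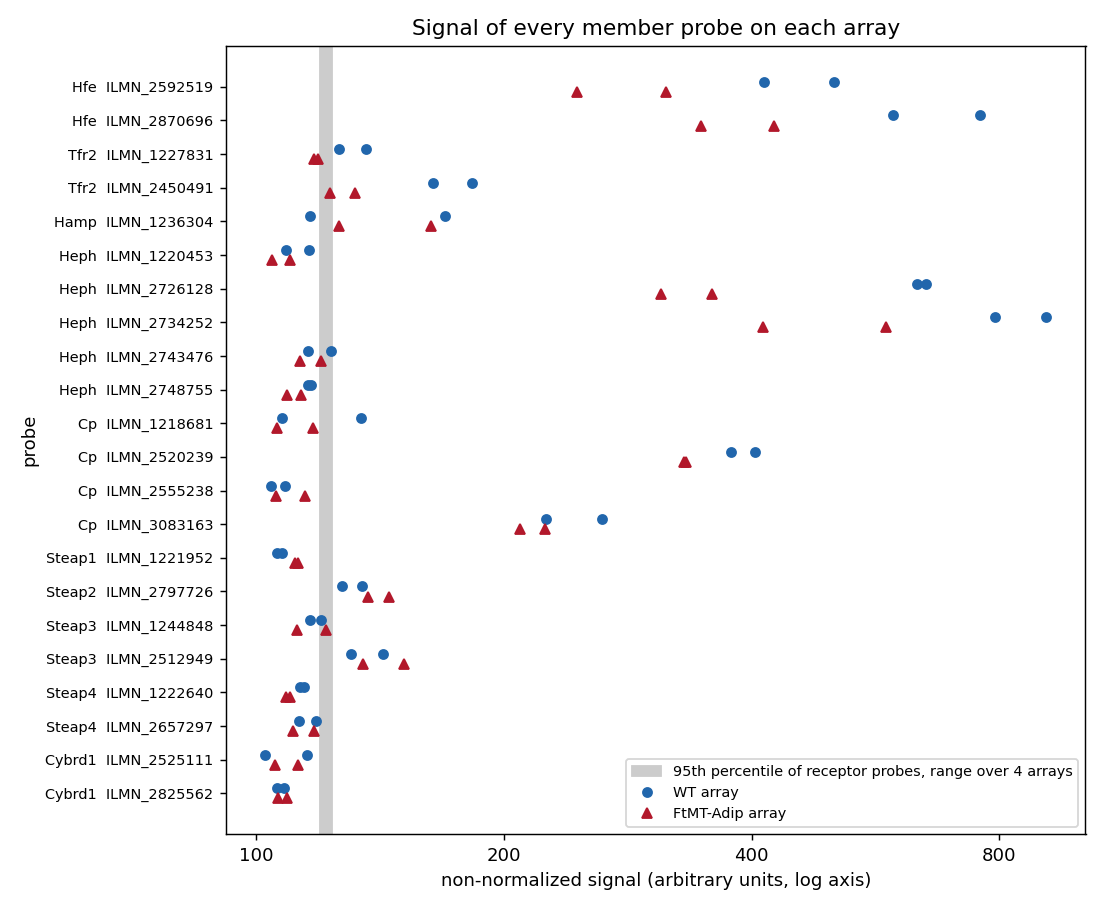
Non-normalized signal (log axis, arbitrary units) of all 22 member probes, with WT arrays as circles, FtMT-Adip arrays as triangles and the range of the background limit over the 4 arrays in grey. Hfe and the brighter Heph probes lie well to the right of the grey band with FtMT-Adip below WT, whereas 11 of the 22 probes were not tested because at most 1 array lay above background.

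Hfe, on chromosome 13, encodes an atypical MHC class I protein that binds transferrin receptor 1 and is mutated in hereditary haemochromatosis. Both of its probes were above background on all 4 arrays. Probe ILMN_2870696 gave WT signals of 593.4 and 758.1 and FtMT-Adip signals of 425.5 and 347.2. Probe ILMN_2592519 gave 413.8 and 503.9 for WT, and 245.4 and 314.9 for FtMT-Adip. With both probes each FtMT-Adip array was below each WT array, and WT 2 was the highest array. On the normalized log2 scale ILMN_2870696 went from 9.30 ± 0.33 (SD, n = 2) in WT to 8.38 ± 0.33 (SD, n = 2) in FtMT-Adip, a 1.89-fold lower level (log2 change -0.92, SE 0.214, limma adjusted p = 0.0345). For ILMN_2592519 the level was 1.82-fold lower (log2 change -0.86, SE 0.191, limma adjusted p = 0.0286). The 95% intervals of the change, from -1.41 to -0.44 and from -1.30 to -0.43, nearly coincide.

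The calls of Hfe depended on single arrays. Without WT 2 the log2 changes were -0.70 (ILMN_2870696, adjusted p = 0.134) and -0.66 (ILMN_2592519, adjusted p = 0.116), and neither probe was called. ILMN_2592519 was also not called without FtMT-Adip 1 (-0.70, adjusted p = 0.161), nor ILMN_2870696 without FtMT-Adip 2 (-0.69, adjusted p = 0.121). In the values that the authors normalized, the log2 changes were -0.78 and -0.62, with adjusted p = 0.203 and 0.356. There, ILMN_2870696 read 49.6 and 50.9 for WT and 39.8 and 21.5 for FtMT-Adip, so the FtMT-Adip arrays lay further apart than the WT arrays. B2m, which encodes the light chain that HFE needs to reach the surface, stood at a log2 change of 0.15 (SE 0.117, adjusted p = 0.522).

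Tfr2, on chromosome 5, encodes the second transferrin receptor, known mainly from hepatocytes and red cell precursors. Its probe ILMN_2450491 gave WT signals of 182.8 and 164 and FtMT-Adip signals of 131.8 and 122.8, where the second FtMT-Adip array was not above background. The groups did not overlap, and all 4 signals were dim beside the background limit. The level was 1.59-fold lower in FtMT-Adip (log2 6.997 ± 0.12 against 6.32 ± 0.15, SD, n = 2 each, log2 change -0.67, SE 0.127, limma adjusted p = 0.0148). Its other probe, ILMN_1227831, gave 126.2 and 136.1 with WT RNA and 117.6 and 119 with FtMT-Adip RNA. Both FtMT-Adip arrays were not above background there, and the test did not pass (log2 change -0.26, SE 0.101, adjusted p = 0.175). Since this probe was tested only through its WT signals, its direction was fixed in part by the filter. ILMN_2450491 also met the limit of 2 arrays by its WT signals alone, with 1 FtMT-Adip array above background besides. The size of the change of ILMN_2450491 depended on how background was treated, with a log2 change of -0.46 without background correction, -1.03 with an offset of 16 and -1.25 with the receptor probes as negative controls, and it was called each time. The call of ILMN_2450491 was lost without WT 1 (-0.58, adjusted p = 0.0614), without FtMT-Adip 2 (-0.56, adjusted p = 0.0727) and in the authors' normalized values (-0.84, adjusted p = 0.243).

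Hamp, on chromosome 7, encodes hepcidin, which is made mainly by the liver. Its single probe, ILMN_1236304, read 116.3 and 169.7 with WT RNA and 126.1 and 163 with FtMT-Adip RNA. WT 1 was not above background and WT 2 was the highest array, so the groups overlapped and the spread within WT exceeded the difference between groups. The log2 change was 0.02 (SE 0.258, adjusted p = 0.975), with a 95% interval from -0.56 to 0.61, and it changed sign with the array left out (from -0.41 without WT 1 to 0.46). Hamp2, the neighbouring copy that is not a member, read 139.7 and 124.6 with WT RNA and 138.9 and 147.4 with FtMT-Adip RNA (log2 change 0.16, SE 0.116, adjusted p = 0.497). Probe sequences were not among the columns used here, and whether each of these probes detects the transcript of the other gene was not tested.

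Heph, on the X chromosome, encodes hephaestin, the ferroxidase mutated in mice with sex-linked anaemia. Of its 5 probes, 2 were bright and both were lower. Probe ILMN_2726128, which had the lowest adjusted p of the members, read 634.8 and 651.8 with WT RNA and 310 and 358.2 with FtMT-Adip RNA. The WT arrays were nearly equal and both FtMT-Adip arrays lay far below them. The level was 2.14-fold lower (log2 9.24 ± 0.10 against 8.15 ± 0.08, SD, n = 2 each, log2 change -1.10, SE 0.153, limma adjusted p = 0.00427). This call held with any 1 array left out (log2 change -1.16 to -1.04, largest adjusted p = 0.0205) and in the authors' normalized values (-1.38, adjusted p = 0.0114), where the probe read 34.1 and 52.4 for WT and 19.3 and 13.6 for FtMT-Adip.

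Heph probe ILMN_2734252 read 912.6 and 789.6 with WT RNA and 413.2 and 581.8 with FtMT-Adip RNA. FtMT-Adip 1 was the lowest array, and the groups did not overlap. The log2 change was -0.87 (SE 0.180, limma adjusted p = 0.0217), a 1.83-fold lower level, and -1.32 in the authors' normalized values (adjusted p = 0.00642). Without WT 1, WT 2 or FtMT-Adip 1 the call was lost (adjusted p = 0.0958, 0.0527 and 0.130), with log2 changes of -0.81, -0.92 and -0.67. The other 3 Heph probes, ILMN_1220453, ILMN_2743476 and ILMN_2748755, read between 104.4 and 123.3 on all arrays and were not tested, since at most 1 array lay above background. Probes of 1 gene share their RNA and are not replicates of the comparison.

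Cp, on chromosome 3, encodes ceruloplasmin, the copper-carrying ferroxidase of plasma, which is also made in fat. Probe ILMN_2520239 read 404.1 and 377.9 with WT RNA and 332.8 and 330.7 with FtMT-Adip RNA. Probe ILMN_3083163 read 263.1 and 224.8 with WT RNA and 209.4 and 224.6 with FtMT-Adip RNA. With both probes the FtMT-Adip arrays lay below the WT arrays, for the second by a narrow margin, but neither difference passed the test. The log2 changes were -0.30 (SE 0.149, adjusted p = 0.291, 95% interval -0.64 to 0.04) and -0.24 (SE 0.149, adjusted p = 0.417, 95% interval -0.57 to 0.10), the latter -0.13 without WT 1. Both intervals reach past 0, and whether Cp and Heph differed in their change was not tested. The authors' normalized values gave -0.49 and -0.24 (adjusted p = 0.467 and 0.797). The other 2 Cp probes, ILMN_1218681 and ILMN_2555238, were above background on 1 and 0 arrays, the former reading 134.1 in WT 2 and 106.1 to 117.1 elsewhere.

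**Figure D2:**
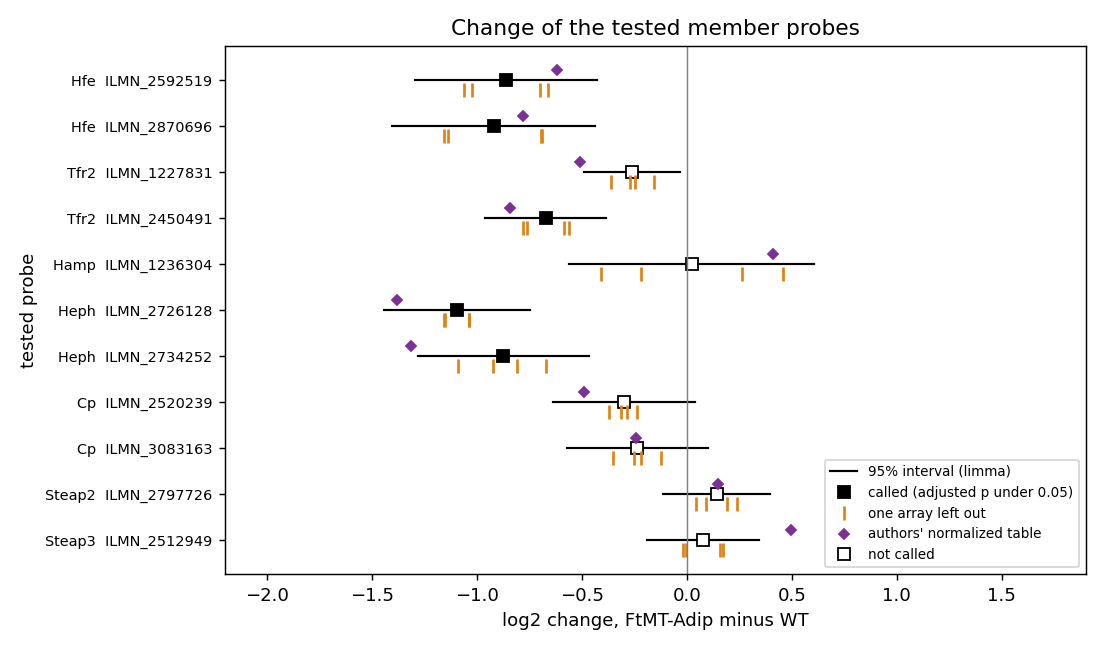
Log2 change (FtMT-Adip minus WT) of the 11 tested member probes, with the 95% interval, the values with 1 array left out below each square and the value in the authors' normalized table above it. Filled squares are called. The 5 called probes, of Hfe, Tfr2 and Heph, lie between -1.10 and -0.67, and the intervals of Hamp, Cp, Steap2 and Steap3 include 0. The interval of Tfr2 ILMN_1227831, from -0.49 to -0.03, excludes 0, but the probe is not called, since calls use the adjusted p.

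The metalloreductases were at or near background in this tissue by these probes. Steap2, a ferric and cupric reductase of endosomes and the plasma membrane on chromosome 5, was above background on all 4 arrays. Its probe ILMN_2797726 read 134.5 and 127.1 with WT RNA and 145 and 136.5 with FtMT-Adip RNA. The raw values of the groups did not overlap but the normalized ones did (log2 change 0.14, SE 0.112, adjusted p = 0.534, 95% interval -0.11 to 0.40). Steap3, on chromosome 1, encodes the endosomal ferrireductase of red cell precursors. Its probe ILMN_2512949 read 142.4 and 130.3 with WT RNA and 134.9 and 151.2 with FtMT-Adip RNA, with overlapping groups (log2 change 0.08, SE 0.118, adjusted p = 0.777, 95% interval -0.19 to 0.35). Its other probe, ILMN_1244848, read 112.2 to 121.4 and was above background on 1 array.

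Steap1, a family member that lacks the oxidoreductase domain of the others and whose probe is ILMN_1221952, read 107.6 and 105.9 with WT RNA and 111.3 and 112.3 with FtMT-Adip RNA. Steap4, also known as TIARP and described in fat as a reductase induced by tumour necrosis factor, has probes ILMN_1222640 and ILMN_2657297. The first read 112.9 and 114.2 with WT RNA and 109.9 and 108.6 with FtMT-Adip RNA. The second read 118.3 and 112.7 with WT RNA and 110.8 and 117.4 with FtMT-Adip RNA, so that its groups overlapped. Cybrd1, the ascorbate-dependent ferric reductase of the duodenum on chromosome 2, has probes ILMN_2525111 and ILMN_2825562, which read 102.5 to 115.1 over all arrays. None of these 5 probes was above background on any array. They were therefore not tested, and a difference was not detectable, which is a statement about these probes and not about the absence of the transcripts.

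Genes of the neighbouring steps were read from 4 lists, 83 entries in all, of which 65 were tested. In these lists 6 genes were higher and 6 lower. Over all tested probes 3.28% were called higher and 4.16% lower, counted per probe and not per gene. Of the genes that control hepcidin, 0 of 15 tested were higher and 0 lower by limma at an adjusted p of 0.05, and the list's median log2 change was -0.21, beside 0.00 over all tested probes. The smallest unadjusted p-values belonged to the BMP receptor gene Bmpr1a (log2 change -0.61, SE 0.160, adjusted p = 0.0528), the inhibitory Smad gene Smad6 (-0.52, SE 0.140, adjusted p = 0.0616) and the BMP effector gene Smad5 (-0.45, SE 0.161, adjusted p = 0.141). When limma was fitted without a variance trend, Bmpr1a (adjusted p = 0.0436) and Smad6 (adjusted p = 0.0464) were called lower. At an unadjusted p under 0.05, 5 genes of this list were lower and 0 higher. Over the whole array, 4449 of the 20797 tested probes passed that limit, counting both directions. Hjv, Bmp2, Tmprss6, Erfe and Il6 were among the 9 members of this list that were not tested for low signal.

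Of the genes of iron uptake, storage and export, 3 of 24 tested were higher and 3 lower, with a median log2 change of 0.22. At an unadjusted p under 0.05 by limma, 10 were higher and 3 lower. Slc40a1, which encodes ferroportin, the exporter that hephaestin and ceruloplasmin serve, read 611.9 and 602.3 with WT RNA and 966.5 and 739.9 with FtMT-Adip RNA. Its log2 change was 0.48 (SE 0.198, adjusted p = 0.202), which did not pass the test. It was 0.22 without FtMT-Adip 1 (adjusted p = 0.729), and 0.77 without FtMT-Adip 2, where Slc40a1 was called higher (adjusted p = 0.0454). Hp, the gene of the haemoglobin scavenger haptoglobin, was 4.50-fold lower (log2 change -2.17, SE 0.143, limma adjusted p = 0.000441). Trf, the gene of transferrin, the ligand of both receptors, was 2.27-fold lower (-1.18, SE 0.153, adjusted p = 0.00322). Aco1, the gene of iron regulatory protein 1, stood at -0.68 (SE 0.158, adjusted p = 0.0350). The higher genes were Ftl1 (ferritin light chain, 1.11, adjusted p = 0.00194), Tfrc (transferrin receptor 1, the partner of HFE, 1.11, adjusted p = 0.0262) and Slc11a1 (a metal transporter of phagosomes, 1.08, adjusted p = 0.0125). The call of Tfrc was lost without WT 1 (log2 change 0.71), FtMT-Adip 1 or FtMT-Adip 2, the call of Slc11a1 ended when WT 1 or FtMT-Adip 1 was dropped, and that of Aco1 without WT 1 or either FtMT-Adip array. In the authors' normalized values Tfrc (log2 change 1.07, adjusted p = 0.0683) and Aco1 (-1.05, adjusted p = 0.0601) were not called with changes of about the same size for Tfrc and larger for Aco1.

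Copper, which hephaestin and ceruloplasmin carry in their active sites, was followed through its supply and the enzymes that use it. Of 15 tested genes 0 were higher by limma (3 at an unadjusted p under 0.05) and 3 lower, with a median log2 change of -0.06. The lower genes encode secreted or surface enzymes and not copper carriers, but not every such gene of the list was lower. The lysyl oxidase family gene Loxl1 stood at 0.44 (SE 0.176, limma adjusted p = 0.187) and Loxl2 at -0.06 (SE 0.140, adjusted p = 0.863). Lox, the collagen cross-linking lysyl oxidase gene, read 1059.3 and 976.9 with WT RNA and 384.2 and 498.8 with FtMT-Adip RNA (log2 change -1.31, SE 0.165, adjusted p = 0.00291). Sod3, the extracellular superoxide dismutase gene (-0.99, SE 0.197, adjusted p = 0.0188), and Aoc3, the gene of a surface amine oxidase of adipocytes and vessels (-0.73, SE 0.153, adjusted p = 0.0228, 1 of 2 tested probes called), were lower too. The calls of Sod3 and Aoc3 were lost without WT 1 or FtMT-Adip 1. The copper exporter gene Atp7a, which loads copper onto secreted cuproenzymes, stood at 0.49 (SE 0.164, adjusted p = 0.120), and the copper importer gene Slc31a1 at -0.26 (SE 0.160, adjusted p = 0.401).

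Among other reductases and oxidase subunits, 3 of 11 tested genes were higher and 0 lower by limma, with a median log2 change of 0.29. These counts use the brightest probe of each gene, by which 6 were higher and 0 lower at an unadjusted p under 0.05. The exception by another probe was Cyb5r3, a cytochrome b5 reductase gene, of whose 3 tested probes the dimmest was called lower (ILMN_2904686, log2 change -0.60, adjusted p = 0.0329), against -0.19 for the brightest (adjusted p = 0.550). Frrs1, which encodes a ferric-chelate reductase of the cytochrome b561 type, read 209 and 199.4 with WT RNA and 308.2 and 293 with FtMT-Adip RNA. Each FtMT-Adip array was above each WT array (log2 change 0.66, SE 0.149, adjusted p = 0.0310, both tested probes called), and the call was lost without WT 1, WT 2 or FtMT-Adip 1 and in the authors' normalized values (1.07, adjusted p = 0.0526). Cyb5r1, a cytochrome b5 reductase gene listed as NQO3A2, read 256.1 and 246.2 with WT RNA and 434.1 and 500.8 with FtMT-Adip RNA (log2 change 1.01, SE 0.148, adjusted p = 0.00512). Cyba, a subunit gene of the phagocyte NADPH oxidase, was also higher (1.05, SE 0.170, adjusted p = 0.00824).

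**Figure D3:**
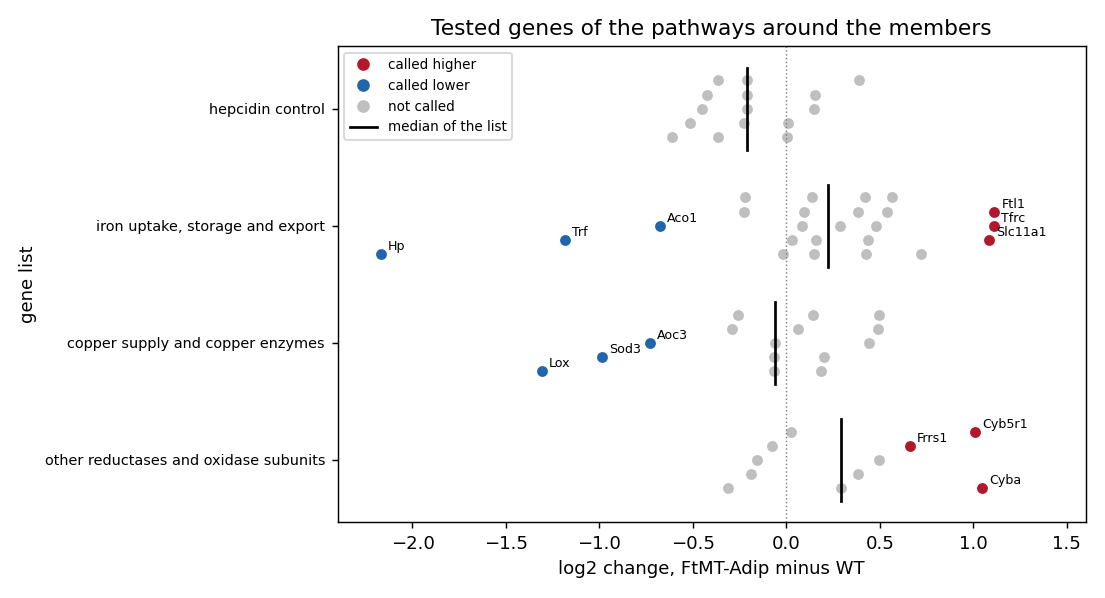
Log2 change (FtMT-Adip minus WT) of each tested gene in the 4 lists, 1 point per gene by its brightest probe, with genes called higher in red, called lower in blue and the median of each list as a black line. In the fit shown, which has a variance trend, hepcidin control holds no called gene. The called genes of the copper list all lie left of 0 and those of the other reductases right of 0.

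Markers of several cell types moved in the same arrays. Their calls stand beside 3.28% higher and 4.16% lower of all tested probes. In whole tissue, fewer cells of a type and less RNA per cell cannot be told apart. Of 11 adipocyte markers 8 were lower (median log2 change -0.86), and their summed signal was 103725 and 85311 for WT and 30701 and 45777 for FtMT-Adip. Of 10 tested endothelial markers 4 were lower (median -0.60), with sums of 9737 and 10687 for WT and 5670 and 7102 for FtMT-Adip. Of 4 tested red blood cell markers 3 were lower (median -0.86), with sums of 44706 and 46422 for WT and 26172 and 21731 for FtMT-Adip. Macrophage markers were higher for 10 of 12 tested (median 1.17), with sums of 12510 and 12958 for WT and 35332 and 29229 for FtMT-Adip. Preadipocyte and fibroblast markers went both ways, 2 higher and 1 lower of 10. Skeletal muscle markers were higher for 2 of 7 tested (Acta1 and Atp2a1, 6 at an unadjusted p under 0.05, median 1.62), and FtMT-Adip 1 was the highest array for all 7. FtMT-Adip 2 was also above both WT arrays for Acta1 (1246.8 against 614.1 and 582.8) and Atp2a1 (321.1 against 123 and 154.9). With Myl1, the brightest of them, these markers summed to 4730 and 4740 in WT and to 10383 in FtMT-Adip 1 against 4549 in FtMT-Adip 2. Calls numbered 0 of 9 for lymphocyte and 0 of 2 for mammary epithelium markers by limma (1 and 0 at an unadjusted p under 0.05), 1 lower of 4 for neutrophil markers, and 3 higher and 1 lower of 6 for mast cell markers. Of the hepatocyte markers 7 of 10 were tested and 0 were called by limma (3 higher and 0 lower at an unadjusted p under 0.05). Their log2 change was above 0 for 6 of the 7 (median 0.48), with sums of 957 and 1634 for WT and 2160 and 1664 for FtMT-Adip. Alb, which defines the type, was not tested for low signal. The part of any of these cell types in the lower signals of Hfe, Heph and Tfr2 was not tested.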

How the data were processed

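The authors deposited a table of non-normalized intensity values, with background not subtracted, and a table of normalized intensity values whose method is not stated. The series value table matched the latter exactly (largest difference 0). Per the labels' protocols, RNA was extracted with Trizol, DNase treated and hybridised with biotin label to a MouseRef-8 v2 BeadChip. The tables hold 45281 probes, more than that design is known to carry, so the array type is not settled. Scanner software and genome build are not given in the sources used here. Here probes carry the names of the tables and no sequence. Another 8 columns of log values per sample were not used.

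Non-normalized signals were corrected with normexp (offset 50), quantile normalized and put on the log2 scale in limma 3.58.1 (R 4.3.3), since no detection p-values for neqc were found among the columns. A probe was tested when, on at least 2 of 4 arrays, fewer than 5% of 1479 receptor probes were as bright (20797 probes). Total signal per array was 14143397 to 15086032, and the number of arrays limits the precision. FtMT-Adip was compared with WT by moderated linear models (lmFit, then eBayes with trend), two-sided, and p-values were adjusted by Benjamini-Hochberg across the tested probes. SE is the moderated standard error. Slides and scan dates are not stated, and batches were not examined. The probe for Ftmt (ILMN_2705758) was not above background on any array, and whether it detects the transgene is not known, so it does not check the labels.

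Every member probe is named, and list genes are represented by their brightest tested probe. From each list the text names called genes (up to 6 a direction) or else the 3 with the smallest p. B2m, Slc40a1, Atp7a, Slc31a1 and untested list members were named outside that rule after their values were seen, for their role beside a member. Loxl1 and Loxl2 were likewise named outside it, as relatives of Lox. The members and lists were chosen with earlier results of these data known. Alternatives were another offset, no background correction, correction by receptor probes, median scaling, the authors' table (log2, floor 1), other filters, no variance trend, each array left out and the replicate number as a block. The procedure was tested on simulated data.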

Additional observations from a re-analysis of the deposited data

How the results depend on the processing

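The 4 lower calls among the 15 probes named by symbol, 2 probes each of Hfe and Heph, were also made under other settings. These were an offset of 16, no background correction, correction by receptor probes, median scaling, both other filters and no variance trend. Their number was 2 in the authors' normalized values (both Heph) and 1 to 3 with 1 array left out, the lowest without WT 2. The single lower call under an older name (Tfr2) became 0 in the authors' normalized values and with a filter on all 4 arrays, where its probe was not tested, and 0 to 1 with 1 array left out. Over all probes, higher and lower calls numbered 323 and 372 in the authors' values, and 317 to 763 and 344 to 832 with 1 array left out, the lowest without FtMT-Adip 1. In the 4 lists the genes called higher numbered 3 to 8 and those called lower 3 to 6 over the left-out arrays. With 1 array left out, its group's lone array is assumed to vary like the others. The log2 change crossed 0 for Hamp, from -0.41 without WT 1 to 0.46 without WT 2, and for Steap3 (ILMN_2512949), from -0.016 without FtMT-Adip 2 to 0.17 without FtMT-Adip 1. Among called probes and genes, the authors' values gave log2 changes over 1.5 times those reported for Heph (ILMN_2734252), Frrs1, Aco1 (-1.05) and Aoc3 (-1.11). With each gene's smallest p in place of its brightest probe, the lists held 6 higher and 7 lower genes. Without a variance trend they held 7 higher and 8 lower genes, with Bmpr1a and Smad6 among the lower. The cause of these differences was not tested. The labels give both groups the replicate numbers 1 and 2 without a shared litter or day, and deviations of same-numbered arrays had a correlation of -0.08 across probes. With the replicate number as a block, 3 of the probes named by symbol and 1 probe under an older name were called lower. Over all probes 525 were then higher and 700 lower, with 5 genes higher and 5 lower in the lists. The calls of Hfe ILMN_2870696 (adjusted p = 0.0658), Aco1 (0.0602) and Frrs1 (0.0505) were then lost.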
